A study of Mus musculus with 6 samples.

Results

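Deoxynucleotide supply enzymes make and police the building blocks of DNA. The table was searched by gene name for 9 of them, and all 9 were found among its 54532 genes: the ribonucleotide reductase subunits Rrm1, Rrm2 and Rrm2b, the thymidylate genes Tyms, Dut, Shmt1 and Dctpp1, and the salvage kinases Tk1 and Dck. The names were picked by function with the difference between the groups already known, so the values of the 9 genes are given as a description and without p-values. RNA was sequenced from MC3T3-E1 cells, a mouse pre-osteoblast line of calvarial origin, kept for 3 days in osteogenic medium, which contained ascorbic acid, β-glycerophosphate and 10 nM dexamethasone. The control group, 3 samples, received this medium alone. The metformin group, 3 samples, received the same medium with 0.2 mM metformin, a biguanide drug that lowers blood glucose. The medium, dose, duration and definition of the control were taken from the study's text, which calls the samples biological replicates. The labels do not tie them to separate cultures, so the p-values measure the spread between these samples, and the experiment rests on 1 cell line.

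Ribonucleotide reductase turns ribonucleotides into deoxyribonucleotides and is the committed step of the pathway. Its large subunit, encoded by Rrm1, pairs with a small subunit that is either Rrm2, made mainly in S phase, or Rrm2b, a p53 target that serves resting cells, DNA repair and mitochondrial DNA. Thymidylate is made from dUMP by thymidylate synthase (Tyms) with a folate carbon to which the serine hydroxymethyltransferase Shmt1 contributes, dUTPase (Dut) provides dUMP and keeps uracil out of DNA, and Dctpp1 hydrolyzes dCTP. Thymidine kinase (Tk1) and deoxycytidine kinase (Dck) recover nucleosides in the cytosol.

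Reads assigned to genes, recovered from the deposited values, were 18399861 to 22111790 per library, and the total sequenced is not known. A count of 0 allows up to 3 reads, 1.36e-05% to 1.63e-05% of these reads, which covers counting error only. Of 10 osteoblast markers, all had a mean of at least 0.5 FPKM (fragments per kilobase of gene, scaled to library size), and their summed level was 11400 to 13400 FPKM in controls and 8170 to 8660 FPKM with metformin. Spp1 held most of this sum, and the other 9, a choice made after the values were seen, summed to 4280 to 5240 FPKM in controls and 5470 to 5940 FPKM with metformin, the other direction. The summed 5 markers of other lineages were 1.65 to 3.18 and 1.89 to 2.31 FPKM for adipocytes, 27.4 to 41.5 and 29.4 to 32.1 for chondrocytes, 0 to 0.155 and 0.118 to 0.443 for skeletal muscle, 15.3 to 26.0 and 27.1 to 30.9 for macrophages, and 0.439 to 0.726 and 0.723 to 1.10 for endothelium, controls first. Myod1 and Myog, the muscle determination genes, were at 0 in every library, while Sox9, a chondrocyte factor, averaged 25.4 FPKM in controls. Of the osteoblast markers, the collagen genes Col1a1 and Col1a2 and the factor Dlx5 rose by 0.93, 0.57 and 0.99, and the matrix protein genes Ibsp and Spp1 fell by 1.599 and 1.502 on the log2 scale by limma-trend. Of 14 alternatives, Col1a1 and Dlx5 were called in 10 and Col1a2 in 11. The other 5 osteoblast markers were not called by limma-trend: Sp7 (0.356), Runx2 (-0.178), Sparc (-0.164), Alpl (-0.159) and Bglap (-0.278). The median log2 fold change of the 10 was -0.162. Among macrophage markers Cd68 fell by 0.49, Lyz2 held most of the sum (17.99 and 27.2 FPKM on average), and Ptprc, Csf1r and Adgre1 averaged at most 0.0597 FPKM in either group. The part of these markers in the results below was not tested. Control replicate 1 stood apart from the other controls (Pearson correlation of log2 values 0.960 and 0.952 with them, against 0.988 between them, across genes), and its deviation had a Spearman correlation of -0.668 with transcript GC content across genes. Each pair of metformin samples correlated at 0.992, so the groups differed in spread, while the fit pools the spread of both.

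Rrm2 encodes the S phase small subunit, on chromosome 12 (24708241 to 24714146). It had 9.37, 8.91 and 6.33 FPKM in the control replicates and 51.3, 50.4 and 46.4 FPKM with metformin. The lowest metformin sample was far above the highest control. The mean was 8.21 ± 1.64 FPKM in controls and 49.3 ± 2.59 FPKM with metformin (SD, n = 3 each), 6.01 times as high, and the log2 fold change of FPKM + 1 was 2.47 (standard error 0.15), rank 29 of 12681 genes tested. The study itself named Rrm2 among genes higher with metformin in these samples, so its direction is not independent evidence. In reads this was 345 to 518 per control library and 2504 to 3042 per metformin library. A transcript of Gm48455 is 95.5% identical over 419 bases to Rrm2, but Gm48455 was listed with 0 reads in every library.

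Rrm1, the large subunit that carries the active site, lies on chromosome 7 (102441695 to 102469771). It had 12.1, 10.6 and 9.43 FPKM in controls and 19.9, 20.2 and 18.9 FPKM with metformin, without overlap. The fold of the means was 1.83 and the log2 fold change 0.82 (standard error 0.10), so the RNA of Rrm1 differed between groups by less than that of Rrm2.

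Rrm2b, the alternative small subunit, is on chromosome 15 (37923952 to 37961318). Its controls had 1.20, 0.987 and 0.980 FPKM, and the metformin samples 0.894, 1.06 and 1.12 FPKM. The groups overlapped, although the lowest sample was a metformin sample and the highest a control, with 176 to 200 reads per control library and 162 to 211 per metformin library. The log2 fold change was -0.02 (standard error 0.10), and it took the other sign with the GC correction (0.018) and without control replicate 1 (0.029). Rrm2b overlaps Gm3362 on the same strand, which had 17 to 40 reads per library, and Gm8616 shares 1051 bases at 96.1% identity with it and had at most 2 reads.

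The RNAs of the 3 subunits differed between the groups by unequal amounts, and their ratios within a sample do not depend on how the sample was scaled. Rrm2 stood to Rrm1 at 0.774, 0.839 and 0.672 in controls and at 2.58, 2.50 and 2.46 with metformin. On the log2 scale the mean ratio went from -0.40 ± 0.16 to 1.33 ± 0.04 (SD, n = 3 each), a difference of 1.73. The ratio of Rrm2 to Rrm2b was 7.81, 9.03 and 6.46 in controls and 57.3, 47.5 and 41.3 with metformin, a difference of 2.65 on the log2 scale. The ratio of Rrm2b to Rrm1 was lower with metformin by 0.92 on the log2 scale (-0.921). All 3 ratios were without overlap between the groups.

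**Figure D1:**
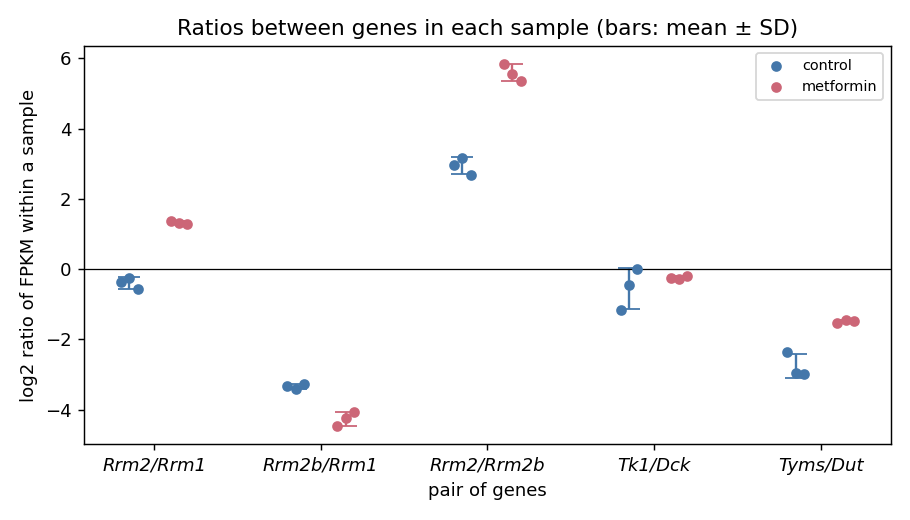
Log2 ratio of FPKM between 2 genes in each sample (y axis) for 5 pairs (x axis), with points for single samples and bars for the mean ± SD of 3 samples. Rrm2 over Rrm1 lies below 0 in the 3 controls and above 0 in the 3 metformin samples, while Tk1 over Dck overlaps between the groups.

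Rrm1 and Rrm2 hold a CCAAT box, the core of the site read by NF-Y, close upstream of their RefSeq start. The sequences below are the 250 bases before the start, from RefSeq (GRCm38.p6), with CCAAT in capitals. That of Tyms, which was also higher with metformin (log2 fold change 1.54), is shown because it holds neither CCAAT nor ATTGG. Rrm1 lies at chr7:102441445-102441694 on the plus strand, Rrm2 at chr12:24708004-24708253 on the plus strand and Tyms at chr5:30073626-30073875 on the minus strand.
Rrm1: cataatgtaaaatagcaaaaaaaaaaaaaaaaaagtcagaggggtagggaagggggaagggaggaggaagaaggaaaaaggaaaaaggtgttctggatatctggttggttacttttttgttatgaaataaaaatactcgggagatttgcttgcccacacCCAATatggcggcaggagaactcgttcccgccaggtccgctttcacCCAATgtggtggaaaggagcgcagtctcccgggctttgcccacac
Rrm2: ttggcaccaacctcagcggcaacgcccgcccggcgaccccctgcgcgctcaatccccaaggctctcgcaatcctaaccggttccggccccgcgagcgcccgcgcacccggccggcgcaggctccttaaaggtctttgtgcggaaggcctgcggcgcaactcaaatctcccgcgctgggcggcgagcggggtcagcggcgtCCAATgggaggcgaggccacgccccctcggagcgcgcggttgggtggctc
Tyms: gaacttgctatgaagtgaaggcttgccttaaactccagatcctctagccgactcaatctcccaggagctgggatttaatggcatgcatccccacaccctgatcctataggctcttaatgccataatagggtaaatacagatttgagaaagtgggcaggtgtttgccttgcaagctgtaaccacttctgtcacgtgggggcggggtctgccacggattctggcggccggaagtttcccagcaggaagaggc
The CCAAT boxes start 91 and 45 bases before the Rrm1 start and 50 bases before the Rrm2 start. RefSeq promoters were matched for 8 genes, all but Rrm2b. All 8 were higher with metformin, those with CCAAT and those without, so no gene without a difference stands beside them. CCAAT, on either strand, was in 4 of the 8 (Rrm1, Rrm2, Shmt1 and Dctpp1) and in 33.8% of 32851 promoter windows of this length. The 4 exact forms TTTCCCGC, TTTCGCGC, TTTGCCGC and TTTGGCGC of the E2F site were in 0 of the 8 and in 1.86% of all windows, TTTGAA was in 1, that of Dck, and in 16.0%, and TATAAA was in 0 and in 12.4%. These are matches of letters in 1 window and not sites shown to be bound. Because RefSeq starts differ from the annotated gene bounds, the windows of Dut and Shmt1 lie inside the annotated gene. Those of Rrm2, Tk1, Dck and Dctpp1 run into it.

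Tyms (chromosome 5, 30058202 to 30073617) had 3.08, 1.97 and 1.99 FPKM in controls and 8.67, 8.77 and 8.44 FPKM with metformin. Every metformin sample was above every control, by 3.68 times on the means, and the log2 fold change was 1.54 (standard error 0.14). Its transcripts share a stretch of up to 361 bases at 95% identity or more with those of 18 other genes, among them Reep3, which had 3670 to 5596 reads per control library and 4279 to 5167 per metformin library, so some reads could be split.

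Dut (chromosome 2, 125247190 to 125258608) had 15.8, 15.2 and 15.7 FPKM in controls and 25.1, 23.97 and 23.5 FPKM with metformin. Its controls had the smallest SD of the 9 relative to the mean (0.298 on 15.6 FPKM), and the metformin samples were all higher, 1.55 times on the means (log2 fold change 0.60, standard error 0.08). The ratio of Tyms to Dut was accordingly higher with metformin, by 1.28 on the log2 scale. Shmt1 (chromosome 11, 60788104 to 60811718) differed least among the genes without overlap. It had 2.33, 1.90 and 2.21 FPKM in controls and 3.15, 3.14 and 2.70 FPKM with metformin, 1.40 times on the means (log2 fold change 0.35, standard error 0.10). It overlaps Smcr8 on the other strand, which had 1631 to 1816 reads per control library and 1280 to 1518 with metformin, against 155 to 169 and 204 to 266 for Shmt1, and whether the counting used strand is not stated.

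Dctpp1 (chromosome 7, 127256959 to 127260709) had the largest SD of the 9 relative to the mean in controls (4.86 on 16.0 FPKM). It had 10.7, 20.2 and 17.1 FPKM there and 29.2, 30.8 and 29.2 FPKM with metformin. The groups did not overlap, and the log2 fold change was 0.90 (standard error 0.21) and 0.65 without control replicate 1, the control in which it was lowest.

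Tk1 (chromosome 11, 117815526 to 117826092) and Dck (chromosome 5, 88764996 to 88783281) recover thymidine and deoxycytidine. Tk1 had 1.90, 2.36 and 2.40 FPKM in controls and 11.64, 12.25 and 11.99 FPKM with metformin. The metformin samples were all above the controls, 5.39 times on the means (log2 fold change 2.01, standard error 0.09), or 2.43 on the log2 scale by voom on the reads, which adds no constant of 1 FPKM to a low gene. Dck had 4.29, 3.23 and 2.41 FPKM in controls and 13.81, 14.95 and 13.85 FPKM with metformin, again without overlap, 4.29 times on the means (log2 fold change 1.84, standard error 0.16). Tk1 overlaps Afmid on the other strand, which had 38 to 66 reads per control library and 35 to 54 per metformin library.

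**Figure D2:**
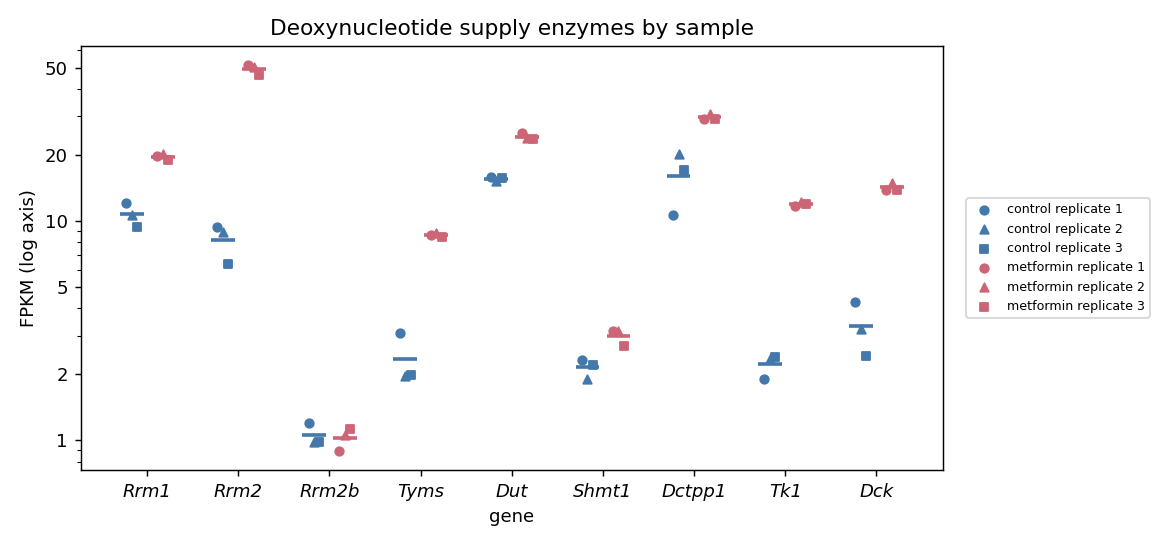
FPKM on a log axis (y) of the 9 genes (x) in each of the 6 samples, with a symbol for each replicate and a line at each group mean. The metformin samples lie above the controls for 8 genes, from Shmt1 with 2.15 and 2.998 FPKM on average to Rrm2 with 8.21 and 49.3, and overlap them for Rrm2b.

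All 9 genes passed the filter of a mean of at least 0.5 FPKM. By limma-trend with Benjamini-Hochberg adjustment over 12681 genes, 8 of the 9 were past the threshold of 0.05 as higher, where 13.2% of all genes tested were, and 0 were past it as lower, where 9.28% were. The whole table held 1670 genes called higher and 1177 called lower, and 2061 and 2433 after a correction for GC content. Of the 9, 0 were lower at an unadjusted p under 0.05, and 0 by voom. The 3 metformin samples lay above the 3 controls for the same 8 genes, as they did for 23.6% of all genes, and below for none, against 20.5%. The median log2 fold change was 0.90 over the 9 genes and 0.005 over all genes. Since this contrast was known when the genes were picked, nothing is read from these counts. Past the threshold in all 14 alternative fits were Rrm1, Rrm2, Tyms, Tk1, Dut and Dck, while Dctpp1 was in 10 of them and Shmt1 in 6.

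**Figure D3:**
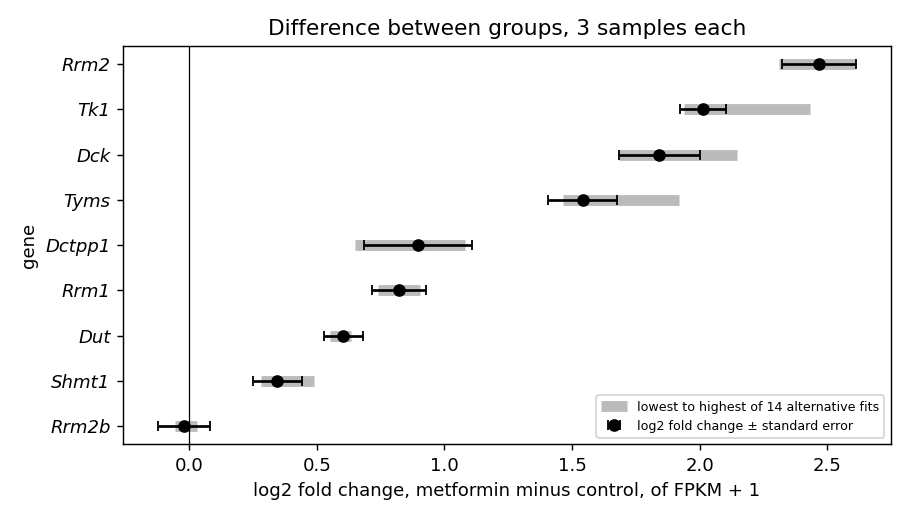
Log2 fold change of FPKM + 1 (x axis, metformin minus control, 3 samples each) of each gene (y axis) as a point with its standard error, and a grey bar from the lowest to the highest of 14 alternative fits. Rrm2 at 2.47 and Rrm2b at -0.02 are the ends of the range, and only the bar of Rrm2b reaches both sides of 0.

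Reads of the 9 genes together were 232 to 267 RPM (their share of the reads assigned to genes, in the usual read scaling) in controls and 607 to 627 RPM with metformin. Rrm2 gave 7.91% to 10.1% of them in controls and 21.4% to 22.7% with metformin. Because RNA was taken from whole cultures, a different number of cells that express these genes and a different amount of RNA in each cell cannot be told apart.

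Control replicate 1 differed from the other controls for several of the 9 genes. Against the mean of those controls on the log2(FPKM + 1) scale it was higher for Dck by 0.48 (42.9% GC in its longest transcript), Tyms by 0.45 (46.7%), Rrm2 by 0.28 (46.0%), Rrm1 by 0.25 (43.3%) and Rrm2b by 0.15 (39.4%), and Shmt1 (0.12, 49.2%) and Dut (0.03, 50.2%) were close to the others. Tk1 was at -0.22 (51.9%) and Dctpp1 at -0.75 (58.0%), the gene of highest GC content. Without this library the log2 fold changes of Rrm2, Dck, Tk1 and Tyms were 2.56, 2.001, 1.94 and 1.69, and the part of base composition in the differences between replicates was not tested.

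Levels of different genes are comparable only per length, and the length matters here. The deposited length equals the union of all annotated exons of each gene, which is 11012 bases for Rrm1 and 5198 for Tk1, while their longest coding transcripts have 3997 and 1440 bases. Per deposited length the order in controls was Dctpp1 (16.0 ± 4.86 FPKM), Dut (15.6 ± 0.298), Rrm1 (10.7 ± 1.34), Rrm2 (8.21 ± 1.64), Dck (3.31 ± 0.942), Tyms (2.34 ± 0.635), Tk1 (2.22 ± 0.279), Shmt1 (2.15 ± 0.220) and Rrm2b (1.06 ± 0.125; SD, n = 3), where samples of Dctpp1 and Dut overlapped, as did those of each neighboring pair from Dck to Shmt1. With metformin the order was Rrm2, Dctpp1, Dut, Rrm1, Dck, Tk1, Tyms, Shmt1 and Rrm2b, with no overlap between neighbors. Per kilobase of the longest coding transcript, Rrm1 came first in controls (29.5 ± 3.69) with Rrm2 at 10.4 ± 2.07, and with metformin Rrm2 came first (62.3 ± 3.28), ahead of Rrm1 (54.1 ± 1.84) and Tk1 (43.2 ± 1.09). On that length the ratio of Rrm2 to Rrm1 was 0.355, 0.385 and 0.308 in controls and 1.18, 1.15 and 1.13 with metformin. With metformin the RNA of Rrm2 was thus above that of Rrm1 under both of these lengths. In reads, without a length, the ratio was 0.650, 0.629 and 0.618 with metformin, so the order depends on the length used. Protein was not measured here.

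**Figure D4:**
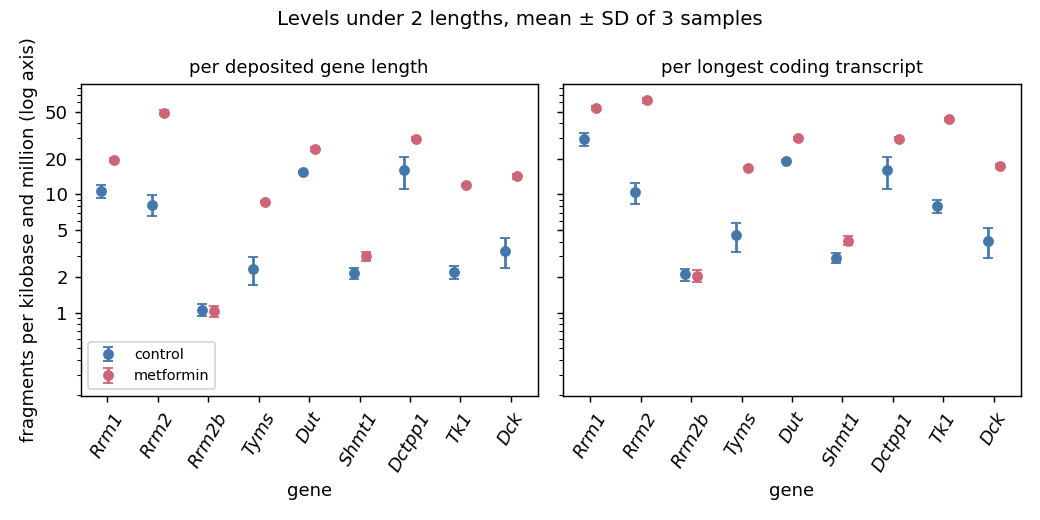
Mean ± SD of 3 samples per group, in FPKM on a log axis (y), for the 9 genes (x), with the deposited gene length on the left and the longest coding transcript on the right. Rrm1 moves from 10.7 to 29.5 in controls and Tk1 from 11.96 to 43.2 with metformin between the panels, while the distance between the groups of a gene is the same in both.

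Profiles over the 6 samples were compared with those of 7452 genes with a mean of at least 5 FPKM, after centering each on its own mean. Nearest to Rrm2 were Arhgap11a (root mean square difference 0.057 on the log2 scale), Ccna2 (0.074), Tpx2 (0.075), Cdca3 (0.090) and Melk (0.092), with Pearson correlations of 0.998 to 0.999 over 6 samples that share the group difference. Ccna2, cyclin A, shares up to 431 bases with another gene that had at most 588 reads. Tpx2 encodes a spindle assembly factor and Melk a mitotic kinase. Nearest to Rrm2b were 6030458C11Rik (0.021), Med19 (0.021) and Galk2 (0.027), genes with log2 fold changes of -0.03 to -0.01.

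Genes of S phase and of cycling cells were read beside the enzymes. All 20 of the list rose (adjusted p 6.43e-05 to 0.0235 by limma-trend), where 13.2% of all genes tested were called higher. Their median log2 fold change was 1.45, and their summed level was 146 to 176 FPKM in controls and 511 to 524 FPKM with metformin. Like the other gene lists, this list was chosen with earlier results of these data known. The counts and adjusted p-values of all these lists are therefore a description and not independent evidence. Mki67, the Ki-67 antigen, had 5.45, 4.18 and 4.15 FPKM in controls and 28.5, 27.9 and 32.3 with metformin (log2 fold change 2.45, standard error 0.12). Top2a, the topoisomerase of dividing cells, rose by 2.61, Ccnb1, cyclin B1, by 2.49 and Pcna, the sliding clamp of DNA polymerases, by 1.19. The enzymes other than Rrm2b and Shmt1 lay within the range of this list, 0.51 to 2.61, and those 2 below it. The part of cycling cells in the differences of the 9 enzymes was not tested.

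The folate cycle supplies the carbon for thymidylate. Of 14 tested genes of the 16 listed, 6 rose (42.9%, against 13.2% of all genes tested) and 0 fell (1 was lower at an unadjusted p under 0.05, and 0 were called lower by voom), and the median log2 fold change was 0.04. Shmt2, the mitochondrial counterpart of Shmt1, rose by 0.77 (standard error 0.12), Mthfd1 by 0.81 and Mthfd1l by 1.01 on the log2 scale by limma-trend. For each, all metformin samples were above all controls, as for 23.6% of all genes tested.

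Salvage, phosphorylation, breakdown and transport genes were called in shares near those of all genes. Of 29 tested genes of the 32 listed, 5 rose and 3 fell, which is 17.2% and 10.3% against 13.2% and 9.28% of all genes tested, and the median log2 fold change was 0.12. Upp1, uridine phosphorylase, rose by 1.15 (standard error 0.16, adjusted p = 0.00374), Cda, cytidine deaminase, by 0.97 (adjusted p = 0.00628), Dctd, the deaminase that makes dUMP from dCMP, by 0.61 (adjusted p = 0.00490) and Dtymk, thymidylate kinase, by 0.50 (adjusted p = 0.0277, all by limma-trend). The fifth, Samhd1, the dNTP hydrolase that lowers the pools, had 14.7, 15.8 and 14.8 FPKM in controls and 18.6, 19.0 and 17.9 with metformin (log2 fold change 0.28, adjusted p = 0.0435), and was called in 6 of 14 alternatives, as Dtymk was in 8. Stretches of up to 209 bases are shared by Samhd1 transcripts and those of 5 other genes.

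Mitochondria have salvage kinases of their own. Dguok, mitochondrial deoxyguanosine kinase, had 4.16, 5.02 and 5.10 FPKM in controls and 3.47, 3.37 and 3.46 with metformin (log2 fold change -0.37 with a standard error of 0.09 and an adjusted p of 0.0310 by limma-trend). Tk2, mitochondrial thymidine kinase, had 7.18, 9.80 and 9.46 FPKM and 6.86, 6.61 and 6.61 FPKM (log2 fold change -0.34 with a standard error of 0.12 and an adjusted p of 0.0909). All metformin samples were below all controls for both, as for 20.5% of all genes tested. For Tk1 and Dck they were above, as for 23.6%. Dguok was called in 7 of 14 alternatives and Tk2 in 3, and the difference between the kinases was not tested. Nt5c2, a cytosolic nucleotidase, fell by 0.47 and Slc29a1, the equilibrative nucleoside transporter, by 0.42 on the log2 scale by limma-trend, called in 12 and 8 of the 14 alternatives.

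De novo synthesis of purines and pyrimidines was read in 2 lists, and the pyrimidine list also holds uridine-cytidine kinases, which are salvage enzymes. Of 12 tested purine genes of 13 listed, 2 rose, Pfas by 0.57 (adjusted p = 0.00618) and Impdh2, which commits IMP to guanine nucleotides, by 0.38 (adjusted p = 0.0126 by limma-trend), and 0 fell (0 at an unadjusted p under 0.05 and 0 by voom). The 16.7% called higher is near the 13.2% of all genes tested, and Impdh2 was not called without any 1 metformin sample (adjusted p 0.0641 to 0.084). Of 8 genes in the pyrimidine list, 2 rose and 2 fell, 25.0% each way against 13.2% and 9.28% of all genes. Both genes that fell are such salvage kinases. Ctps, CTP synthase, rose by 0.87 (adjusted p = 0.000520) and Cad, the enzyme of the first steps, by 0.61 (adjusted p = 0.00822), while the uridine-cytidine kinases Uck1 and Uckl1 fell by 0.59 and 0.42 on the log2 scale by limma-trend, Uckl1 with a call in 11 of 14 alternatives. Impdh2-ps shares 1545 bases at 99.7% identity with Impdh2 and had up to 520 reads in a library.

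Reductase partners were read as well. Of 9 genes listed as reductants, turnover factors or other partners, mitochondrial thioredoxin genes among them, 3 rose (33.3%, against 13.2% of all genes tested). Called lower were 0 (1 was lower at an unadjusted p under 0.05, 0 by voom). Ccnf, the F-box cyclin that targets the Rrm2 protein, had 5.41, 3.91 and 4.09 FPKM in controls and 16.7, 17.8 and 17.1 with metformin (log2 fold change 1.74 with a standard error of 0.12 and an adjusted p of 0.000206 by limma-trend). Txnrd1, thioredoxin reductase, rose by 0.66 and Txn1, thioredoxin, by 0.41, though Txn1 was called in 8 of 14 alternatives and not without any 1 metformin sample, while Fzr1, an activator of the ubiquitin ligase APC/C, had a log2 fold change of 0.52 (adjusted p = 0.0598).

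**Figure D5:**
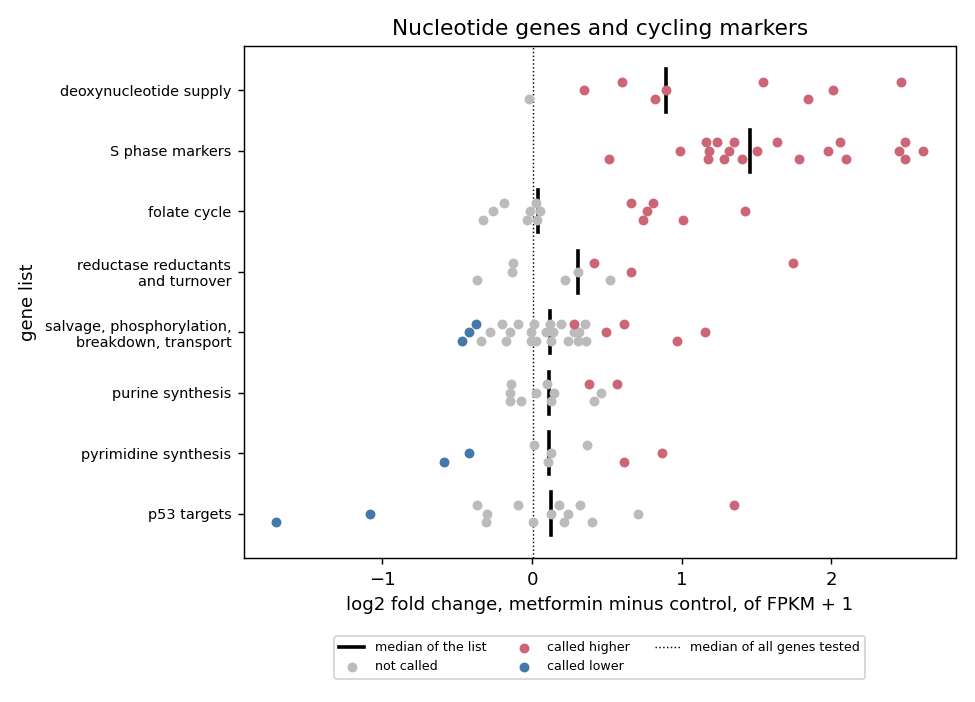
Log2 fold change of FPKM + 1 (x axis, metformin minus control) of each tested gene in 8 lists (y axis), colored by the call of limma-trend, with the median of each list as a bar and that of all genes as a dotted line. All 20 S phase markers are called higher, while the other nucleotide lists hold 18 genes called higher and 5 called lower among 72 (25.0% and 6.94%). Of all genes tested, 13.2% are called higher and 9.28% lower.

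Of 15 p53 target genes, all tested, 1 rose and 2 fell, which is 6.67% and 13.3% against 13.2% and 9.28% of all genes tested, with a median log2 fold change of 0.13. Sesn1 fell by 1.71 (98.5, 87.5 and 75.2 FPKM in controls and 26.0, 25.8 and 25.6 with metformin) and Trp53inp1 fell by 1.09 on the log2 scale, while Btg2, an antiproliferative gene, rose by 1.35 (adjusted p 0.000193 to 0.00386 by limma-trend). Cdkn1a (log2 fold change -0.30, adjusted p = 0.316) and Mdm2 (0.32, adjusted p = 0.0540) were not called, and neither was Rrm2b among the 9 enzymes. Mdm2 was called in 4 of 14 alternatives, and its metformin samples were all above the controls, as for 23.6% of all genes tested. Cdkn1a was called in 1 of 14, and its log2 fold change was -0.524 without control replicate 1.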

How the data were processed

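Total RNA of 6 MC3T3-E1 samples was sequenced from TruSeq libraries. The authors deposited 1 table with FPKM per gene and sample, whose header names no unit: every value above 0 times the listed gene length is a whole multiple of 1 step per sample (100%, tolerance 0.001), so reads could be recovered. The submitters' processing notes name Bowtie 0.12.2, mm8 and mm9, but of 54532 genes 53499 have the coordinates of GENCODE M21 (GRCm38), and that build is used here. The counting tool and strand setting are not given in the sources used here. Columns were matched by the sample descriptions, with 0 other columns of per-sample values.

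Groups were compared with limma 3.58.1 (R 4.3.3), with an intensity trend, after adding 1 to FPKM and taking log2. The fit held 12681 genes averaging 0.5 FPKM or more, and Benjamini-Hochberg adjusted p-values were called under 0.05. Fold changes on this scale understate those of low genes. The study used DESeq2, a count model, which was not run on FPKM. The fit was tested on simulated data. Members and gene lists were chosen with earlier results of these data known. In each list the 4 largest called changes each way were named, with fixed genes that act beside a member (Shmt2, Dtymk, Tk2, Dguok, Dctd, Samhd1, Cda, Ccnf, Fzr1, Mki67, Pcna, Cdkn1a and Mdm2), and by profile the 5 genes nearest to Rrm2 and the 3 nearest to Rrm2b. Some genes that the rule or the lists hold are not reported here by name. The other fits used no filter, a pseudocount of 0.1, total reads as the scaling, at least 10 reads in every sample, voom on the recovered reads, the replicate block, a spline correction for GC content (5 degrees of freedom), that correction with the block, and leaving out each sample. Near-identical transcripts (95% over 200 bases) came from BLAST+ 2.17.0, promoters from RefSeq, and figures from matplotlib 3.10.9.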

Additional observations from a re-analysis of the deposited data

How the results depend on the processing

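Of the 9 enzymes, 8 were past the threshold with all samples and 6 to 8 over the fits that left out 1 sample, and 7 with the replicate block. Shmt1 was not past it with the replicate block, nor Dctpp1 without any 1 metformin sample. Rrm2b, never called, changed sign with the GC correction (0.018), with that correction and the replicate block (0.018), without control replicate 1 (0.029) and without metformin replicate 1 (0.027), with a range of -0.056 to 0.029 over the fits that left out 1 sample. Same-numbered samples did not deviate together, with correlations of -0.0533, 0.000265 and -0.0549.

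Genes called lower over the whole table were 1177, and 698 with the replicate block, 2433 with the GC correction and 1886 with both, and 495 to 2590 over the fits that left out 1 sample, highest without control replicate 1. Genes called higher were 1670, and 938 to 2969 over the same fits, again highest without control replicate 1. Other nucleotide genes called lower were 5, and 2 with the replicate block, 12 with the GC correction, 8 with both and 1 to 12 over those fits (12 without control replicate 1); those called higher were 18 and 14 to 26. The p53 targets called higher were 1, and 2 with the minimum of 10 reads, 3 with voom, 2 with the replicate block, 4 with the GC correction, 3 with both and 1 to 4 over those fits; those called lower were 2 and 2 to 6. The S phase markers called were 20 and 19 to 20. The cause was not tested. The GC correction moved all genes by a median of -0.0542.

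With the longest coding transcript as the length, a choice made after seeing the data, control log2 ratios moved by construction, from -0.399 to -1.523 for Rrm2 to Rrm1, from -3.343 to -3.803 for Rrm2b to Rrm1, from 2.944 to 2.280 for Rrm2 to Rrm2b, from -2.765 to -2.125 for Tyms to Dut, and from -0.546 to 1.01, the other sign, for Tk1 to Dck. The difference of the Tk1 to Dck ratio between groups, 0.298, was -0.017 to 0.568 over the fits that left out 1 sample, within the spread of the controls (SD 0.591).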

Other observations

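Of the 78 other nucleotide genes listed, 6 were under the filter and were not tested, and 5 of them are given here as values. Cmpk2, a mitochondrial nucleotide kinase, averaged 0.635 FPKM in controls and 0.232 with metformin. Adssl1, an adenylosuccinate synthase, averaged 0.707 and 0.249, and Aldh1l1, a folate dehydrogenase, 0.127 and 0.0474. All metformin samples were below all controls for each, as for 20.5% of all genes tested. Reads per library were few, with 45 to 63 in controls and 12 to 25 with metformin for Cmpk2. Adssl1 had 20 to 44 and 6 to 13 reads, and Aldh1l1 6 to 16 and 4 to 5. Nme2 averaged 0.293 and 0.283 FPKM and Mthfs 0.131 and 0.110, with overlap between the groups.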
